A study of Mus musculus with 6 samples.

Results

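Transcripts of 38 genes that fold, check and export secreted proteins in the endoplasmic reticulum (ER), or that sense unfolded protein there, were measured in primary cultures of mouse renal tubular epithelial cells (RTECs). The genes were chosen by name and found in the count files through their Ensembl identifiers, and all 38 were present among 46517 genes. They comprised 10 chaperones and lectins, 5 protein disulfide isomerases, 6 stress sensors and transcription factors, 4 genes of ER-associated degradation, 8 genes of the translocon, of COPII vesicles and of retrieval to the ER, and 5 genes of procollagen folding. RTECs came from kidneys of wild type FvB mice, labelled as aged 4 to 6 weeks (the study's methods give a slightly younger range), and were grown in serum with EGF before treatment. After 24 h in serum-free medium, 3 cultures received 50 ng/ml TGF-β1, a profibrotic cytokine, for 24 h, and the 3 CTL cultures are labelled only as control. No source used here says that the 3 cultures of a group came from separate animals, so the p-values below measure the spread between these cultures.

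Proteins bound for the cell surface or the matrix enter the ER through the SEC61 translocon, fold there with the help of chaperones and disulfide isomerases, and leave in COPII vesicles. When unfolded protein builds up, the sensors IRE1, PERK and ATF6 start the unfolded protein response, which slows translation and switches on chaperone and degradation genes. CREB3L1 and CREB3L2 are membrane-bound relatives of ATF6 that are known for inducing COPII and collagen genes in cells that secrete matrix, and kidney cells exposed to TGF-β1 are known to make more collagen.

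The promoters of several of these genes hold sequence elements through which the response is known to act. They are shown because the fold changes are set out by these elements further on. Windows of 300 bases, from 250 before to 50 after the transcription start, were read from RefSeq promoters of GRCm38.p6, which held 31 of the 38 genes. For 22 of these 31 genes, the first 20 bases after a start were found in an annotated transcript of the gene. The ER stress response element (ERSE) was searched on both strands as CCAAT, then 9 unspecified bases, then CCACG. It was in a promoter of 7 of the 31 genes (22.6%) and in 39 of all 32851 promoters (0.119%). The first share counts genes with a match in any of their promoters, and the second counts promoters. Capitals mark both ends of the element, or of its reverse complement. Bases are written 5′ to 3′ on the strand of the gene, and positions on GRCm38.p6 are given with that strand.
Hspa5, chr2:34772020-34772048, plus strand: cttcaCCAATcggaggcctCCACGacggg
Hsp90b1 element nearer the start, chr10:86705528-86705556, minus strand: gagtgCGTGGtgaggcacgATTGGtgagt
Hsp90b1 element farther from the start, chr10:86705633-86705661, minus strand: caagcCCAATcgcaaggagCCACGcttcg
Calr, chr8:84847070-84847098, minus strand: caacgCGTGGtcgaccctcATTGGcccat
Canx, chr11:50325795-50325823, minus strand: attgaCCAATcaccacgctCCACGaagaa
Dnajc3, chr14:118937822-118937850, plus strand: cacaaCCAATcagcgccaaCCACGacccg
Pdia6, chr12:17266486-17266514, plus strand: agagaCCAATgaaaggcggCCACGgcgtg
Syvn1, chr19:6046527-6046555, plus strand: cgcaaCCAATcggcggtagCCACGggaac

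ERSE-II, searched on both strands as ATTGG, 1 unspecified base and CCACG, was in a promoter of 2 of the 31 genes (6.45%) and in 12 of all promoters (0.0365%). The core of the unfolded protein response element (UPRE) was searched on both strands as TGACGTGG. It was in a promoter of 3 of the 31 genes (9.68%) and in 222 of all promoters (0.676%). The 3 genes that hold it load cargo into vesicles or return escaped proteins to the ER. The UPRE core read backwards begins with the CCACG that also ends both ERSE forms. Capitals mark both ends of ERSE-II and the whole UPRE core, and a match describes the letters in a window, not a site in use.
Dnajb11, ERSE-II, chr16:22857847-22857867, plus strand: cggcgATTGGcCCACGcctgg
Herpud1, ERSE-II, chr8:94386372-94386392, plus strand: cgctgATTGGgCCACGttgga
Sec23a, UPRE core, chr12:59011999-59012016, minus strand: cccttTGACGTGGcagag
Sec24d, UPRE core, chr3:123267465-123267482, plus strand: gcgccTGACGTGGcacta
Kdelr3, UPRE core, reverse complement, chr15:79516373-79516390, plus strand: ccccgCCACGTCAccgcg

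Counts on genes summed to between 28313080 and 34183497 per culture, and 3 counts, the floor used here, corresponded to 0.0878 to 0.106 CPM, which are counts scaled to a fixed library total. The cultures expressed tubule epithelial markers, of which all 10 were tested, and of 8 proximal tubule markers Lrp2 (1980 to 2350 normalized counts in CTL cultures), Aqp1 (247 to 500) and Cubn (131 to 151) were expressed, Hnf4a was low (19.6 to 37.5), and the transporters Slc34a1, Slc5a2, Slc22a6 and Slc22a8 were at most 11.5 in every culture. Replicate 2 stood apart in both groups. The summed tubule epithelial markers were 1597 CPM in CTL replicate 2 and 1445 CPM in TGF-β1 replicate 2, against 2750 to 4071 CPM in the other 4 cultures. The 9 fibroblast markers summed to 2901 and 3765 CPM in the replicate 2 cultures and to 1519 to 2373 CPM in the others. The list did not move together. In replicate 2 of both groups Col1a1, Col1a2, Col3a1, Pdgfrb and Dcn were higher than in the other cultures of the group, and Postn, Thy1 and Pdgfra were lower, by log2 differences of -0.78 and -1.03 for Postn. Pdgfra and Thy1 were at most 70.4 normalized counts, and Lum was at or near 0 in all cultures but CTL replicate 3. With the block, Col1a1, Col1a2 and Postn were called higher in TGF-β1 cultures and Pdgfrb (log2 fold change -0.86, edgeR, adjusted p = 0.000431) and Dcn (-1.21, adjusted p = 0.0256) lower, and none of the 8 tested was called without it in edgeR's test (none at an unadjusted p under 0.05), DESeq2 or limma-voom. Between groups, 2 of the 10 epithelial markers (Cdh16 and Pax8) were called lower in TGF-β1 cultures without the block, beside 6.69% of all genes. With the block, 7 of the 10 were called lower and 0 higher, beside 19.1% of all genes called lower. Of the 4 proximal tubule markers tested, 2 were called lower without the block and 3 with it, and 0 higher. The 8 proximal tubule markers summed to 77.7 to 93.9 CPM in CTL and 36.1 to 49.8 CPM in TGF-β1 cultures. The part of these differences in the results below was not tested. Summed endothelial and leukocyte markers were no higher than 2.68 and 16.1 CPM in any culture. The Y-linked genes Ddx3y, Eif2s3y, Kdm5d and Uty summed to 136 and 154 CPM in the replicate 2 cultures and to at most 0.177 CPM in the other 4, and the X-linked RNA Xist was at 198 and 243 CPM in the replicate 2 cultures and 510 to 652 CPM in the others, although the study's methods describe the mice as males. Results that rest on replicate 2 are therefore also given without it.

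Same-numbered CTL and TGF-β1 cultures deviated together, so each result is given from a fit without the replicate number and from a fit with the number as a block. CTL replicate 1 and TGF-β1 replicate 3 also deviated together, as did CTL replicate 3 and TGF-β1 replicate 1. The pairing of these cultures by number is therefore uncertain. Without the block, Creb3l2 and Ern1 rose and none of the 38 genes fell. That was 2 of 38 genes called higher (5.26%), beside 5.00% of all 15862 genes tested. None was called lower in edgeR's test (1 at an unadjusted p under 0.05) and none by DESeq2 or limma-voom, beside 6.69% of all genes. With the block, 17 of the 38 genes were called higher (44.7%), beside 15.1% of all genes, and 2 were called lower (5.26%), beside 19.1% of all genes. Without replicate 2 in either group and without the block, 10 genes were called higher (26.3%) and 2 lower (5.26%), beside 6.79% and 8.09% of all genes. All 38 genes passed the filter on low counts.

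The median log2 fold change over the 38 genes was 0.111 without the block, 0.105 with it and 0.0718 without replicate 2, and the medians over all genes tested were near 0 in each fit (-0.003 in the fit without the block). Changes were small. With the block, 5.26% of the 38 genes lay at or below a log2 fold change of -0.30, where 19.7% of all genes lay, and no gene of the set was above 0.70. In 10 of the 38 genes (26.3%) every TGF-β1 culture was above every CTL culture, beside 17.2% of all genes. Those 10 were P4hb, Pdia5, Ern1, Xbp1, Creb3l2, Syvn1, Edem1, Sec61a1, Sec61b and Sec31a. Sdf2l1 was the only gene of the set with every TGF-β1 culture below every CTL culture, beside 18.0% of all genes. In same-numbered pairs, 21 of the 38 genes were higher in the treated culture all 3 times and 3 (Sdf2l1, Sel1l and Crtap) lower all 3 times, beside 30.4% and 32.6% of all genes. These counts come from bulk RNA, in which fewer cells of a type and less RNA per cell cannot be told apart.

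**Figure D1:**
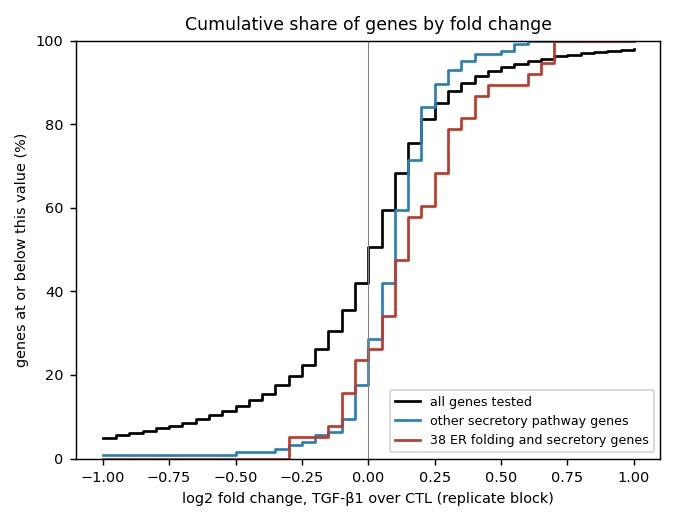
Cumulative share of genes (vertical axis, %) by log2 fold change of TGF-β1 over CTL cultures in the fit with the replicate block (horizontal axis), for the 38 genes, for the other secretory pathway genes and for all genes tested. The 38 genes and the other secretory genes span a narrower range than all genes, and 26.3% of the 38 lie at or below 0.

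**Figure D2:**
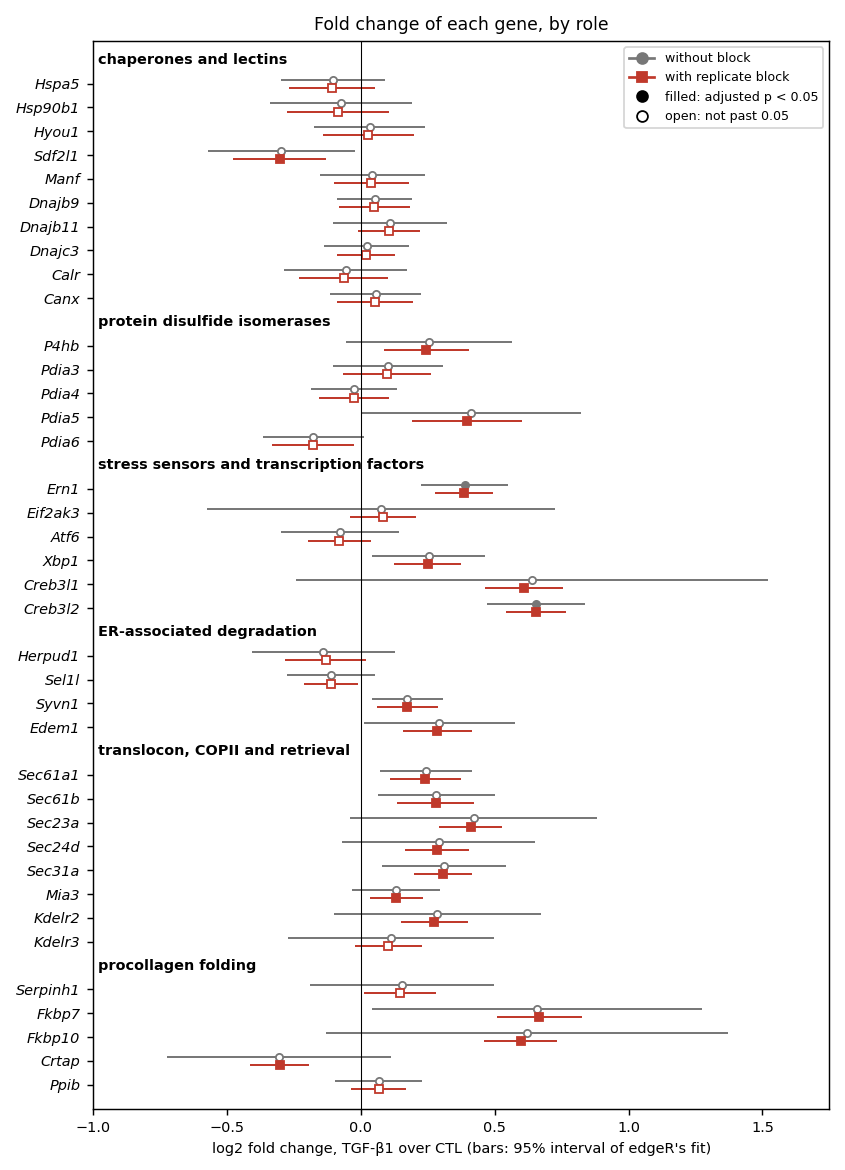
Log2 fold change of each of the 38 genes (horizontal axis) by role, with the 95% interval of edgeR's fit as bars, without the replicate block (grey) and with it (red). Filled symbols have an adjusted p under 0.05. Without the block only Creb3l2 and Ern1 are filled, and the red symbols lie close to the grey ones with shorter bars.

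The stress sensors and transcription factors held both genes called without the block, and 4 of these 6 genes were called higher with it, beside 15.1% of all genes. Creb3l2, which encodes a membrane-bound transcription factor, occupies 37327255 to 37442146 on the minus strand of chromosome 6 (GRCm38). It had 8794, 9972 and 9431 normalized counts in CTL replicates 1, 2 and 3 and 14297, 15897 and 14215 in TGF-β1 replicates 1, 2 and 3. Every TGF-β1 culture was far above every CTL culture, and replicate 2 was the highest culture in both groups. Creb3l2 rose by a log2 fold change of 0.66 (SE 0.07, edgeR, adjusted p = 0.00696; 4.64e-05 with the block), and the log2 ratios of same-numbered cultures were 0.70, 0.67 and 0.59. It stayed past 0.05 when any 1 culture was left out, with adjusted p-values from 0.0148 to 0.0454, but not without both cultures of number 1 (adjusted p = 0.238) or of number 3 (0.0628), fits that keep 2 cultures a group.

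Ern1 encodes IRE1, the kinase and endoribonuclease that splices Xbp1 mRNA, and lies on chromosome 11 from 106394650 to 106487852, minus strand. It had 2166, 1990 and 2063 normalized counts in the CTL cultures and 2839, 2500 and 2799 in the TGF-β1 cultures, in order of replicate number. The groups were well apart, and replicate 2 was the lowest culture in both. Ern1 rose by a log2 fold change of 0.39 (SE 0.07, edgeR, adjusted p = 0.0185; 0.000481 with the block). Leaving out any 1 culture other than TGF-β1 replicate 2 moved the adjusted p above 0.05, to as high as 0.0768, and the log2 fold change without replicate 2 in both groups was 0.42 (adjusted p = 0.00716).

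Xbp1 encodes the transcription factor whose mRNA IRE1 splices, and gene counts cannot show that splicing. It had 4192, 4301 and 4026 normalized counts in the CTL cultures and 4913, 5567 and 4456 in the TGF-β1 cultures. The groups did not overlap, but TGF-β1 replicate 3 was close to the highest CTL culture. Its log2 fold change of 0.25 (SE 0.09) missed the threshold without the block (edgeR, adjusted p = 0.111) and passed it with the block (adjusted p = 0.00771), and without replicate 2 the adjusted p was 0.106.

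Creb3l1, a close relative of Creb3l2 on chromosome 2 from 91982328 to 92024502, minus strand, varied far more between replicate numbers. It had 1331, 2116 and 1170 normalized counts in the CTL cultures and 2001, 3577 and 1616 in the TGF-β1 cultures. CTL replicate 2 was above TGF-β1 replicates 1 and 3, so the groups overlapped, yet each treated culture was above the control culture of its own number, by log2 ratios of 0.59, 0.76 and 0.47. The log2 fold change was 0.64 (95% interval -0.24 to 1.52, edgeR, adjusted p = 0.304) without the block and 0.61 (0.47 to 0.75, adjusted p = 0.00024) with it. Without replicate 2 in both groups and without the block it was 0.53 (adjusted p = 0.0432). The fibroblast marker sum was also highest in replicate 2 and higher in the treated culture of each number, while Pdgfrb and Dcn of that list were lower in each treated culture, and the part of these markers in the Creb3l1 counts was not tested.

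Eif2ak3, which encodes PERK, and Atf6 did not pass the test in any fit. Eif2ak3 had 6506, 4607 and 8182 normalized counts in the CTL cultures and 7432, 4869 and 8033 in the TGF-β1 cultures. Replicate 2 was low in both groups, the reverse of the order seen for Creb3l1. The block narrowed the 95% interval of its log2 fold change from -0.57 to 0.72 down to -0.04 to 0.20. Atf6, the sensor that is cut in the Golgi to release a transcription factor, ranged from 3681 to 4187 normalized counts in CTL and from 3281 to 3976 in TGF-β1 cultures, and its log2 fold change with the block lay between -0.19 and 0.03.

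**Figure D3:**
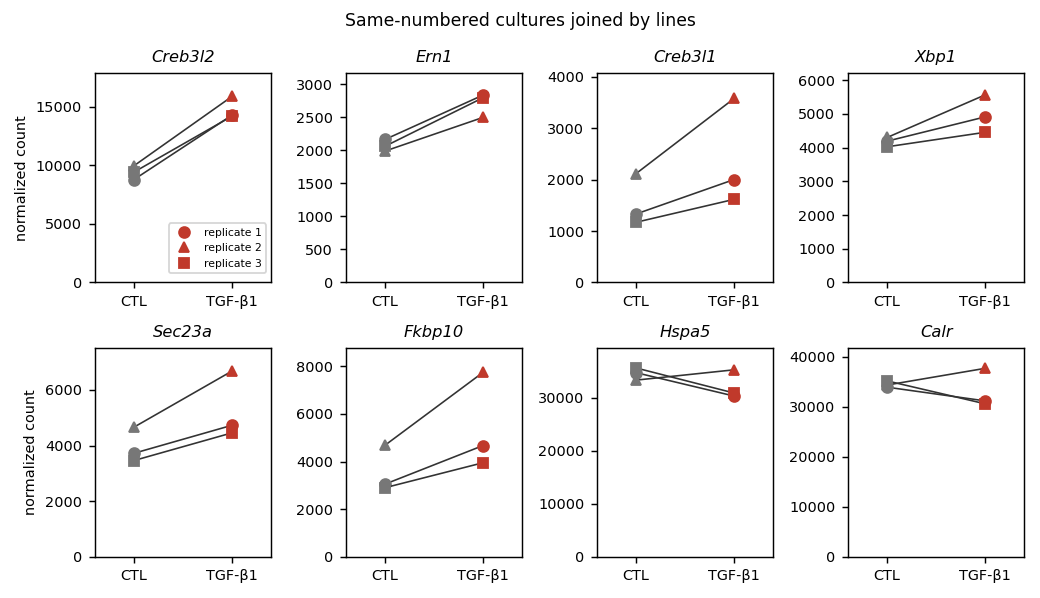
Normalized counts (vertical axes, from 0) of 8 genes in the CTL and TGF-β1 cultures, with lines joining cultures of the same replicate number. Lines for Creb3l2, Ern1, Creb3l1, Xbp1, Sec23a and Fkbp10 rise in all 3 pairs, and those for Hspa5 and Calr rise in replicate 2 and fall in replicates 1 and 3.

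None of the 10 chaperones and lectins was called without the block in edgeR's test (none higher and 1 lower at an unadjusted p under 0.05), and none by DESeq2 or limma-voom. Their median log2 fold change was 0.03, and 1 of the 10 fell with the block, beside 19.1% of all genes. Hspa5 encodes BiP, the main Hsp70 chaperone of the ER and a standard readout of the unfolded protein response. It had 34714, 33311 and 35605 normalized counts in the CTL cultures and 30305, 35256 and 30875 in the TGF-β1 cultures. TGF-β1 replicates 1 and 3 were below every CTL culture, whereas TGF-β1 replicate 2 lay within the CTL range. The log2 fold change was -0.10 (95% interval -0.30 to 0.09, edgeR, adjusted p = 0.448), and with the block the interval ran from -0.26 to 0.05, so a rise of the size seen for Creb3l2 lies outside both intervals. Without replicate 2 it was -0.20 (adjusted p = 0.0906).

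Sdf2l1, a partner of the BiP cycle, fell in all 3 pairs. It had 691, 733 and 674 normalized counts in the CTL cultures and 548, 660 and 499 in the TGF-β1 cultures. The groups did not overlap. Its log2 fold change was -0.30 (SE 0.11, edgeR, adjusted p = 0.145) without the block, -0.30 (adjusted p = 0.0145) with it and -0.38 (adjusted p = 0.0354) without replicate 2. Hsp90b1, the Hsp90 chaperone of the ER, had a log2 fold change of -0.07 and Calr, the lectin chaperone calreticulin, had -0.06, both with intervals across 0. The membrane-bound lectin Canx was at 0.06, the large Hsp70-like chaperone Hyou1 at 0.03 and the secreted ER stress protein Manf at 0.04. Of the BiP co-chaperones, Dnajb9 was at 0.05, Dnajb11 at 0.11 and Dnajc3, which encodes an inhibitor of PERK, at 0.02. With the block, the widest of these 8 intervals was that of Hsp90b1, from -0.27 to 0.10.

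Of the 5 protein disulfide isomerases, which form and reshuffle disulfide bonds, 2 were called higher with the block, beside 15.1% of all genes. None was called without it in edgeR's test (1 higher and 0 lower at an unadjusted p under 0.05), in DESeq2 or in limma-voom. P4hb encodes the isomerase that is also the beta subunit of collagen prolyl 4-hydroxylase. It had 20532, 22767 and 21091 normalized counts in the CTL cultures and 23268, 30733 and 22913 in the TGF-β1 cultures. The groups were apart, but TGF-β1 replicates 1 and 3 were only a little above CTL replicate 2. Its log2 fold change was 0.24 with the block (edgeR, adjusted p = 0.0246) and 0.15 without replicate 2 (adjusted p = 0.15). Pdia5, a low transcript, had 608 to 697 normalized counts in CTL and 734 to 1091 in TGF-β1 cultures, with a log2 fold change of 0.40 with the block (adjusted p = 0.00969), 0.41 without it (adjusted p = 0.172) and 0.26 without replicate 2 (adjusted p = 0.0609). Pdia6 was the reverse, with 9637 to 10670 normalized counts in CTL and 8314 to 9745 in TGF-β1 cultures. It was not called with all cultures (log2 fold change -0.18, adjusted p = 0.189 without the block and 0.068 with it), but was lower without replicate 2 (-0.28, adjusted p = 0.0359). Pdia3, the partner of calreticulin and calnexin, and Pdia4 were at 0.10 and -0.02.

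In ER-associated degradation, which sends misfolded proteins to the proteasome, 2 of 4 genes were called higher with the block, beside 15.1% of all genes. Syvn1, the ubiquitin ligase HRD1, had 2315 to 2343 normalized counts in CTL and 2463 to 2742 in TGF-β1 cultures, a log2 fold change of 0.17 (edgeR, adjusted p = 0.0859 without the block, 0.0246 with it and 0.173 without replicate 2). Edem1, which picks misfolded glycoproteins for disposal, had 3109 to 3512 in CTL and 3552 to 4712 in TGF-β1 cultures, with a log2 fold change of 0.29 (adjusted p = 0.157 without the block and 0.00483 with it) and of 0.22 without replicate 2 (adjusted p = 0.0461). The other members went the other way in value, without passing the test. Herpud1, a stress-induced partner of the ligase, was at -0.14 and Sel1l, the ligase's adaptor, at -0.11. Sel1l was lower in each treated culture than in the control of its number, with an adjusted p of 0.0788 with the block.

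The translocon, COPII and retrieval genes were the role with the largest share called higher with the block, 7 of 8 (87.5%), beside 15.1% of all genes. All 8 were higher in the treated culture of each same-numbered pair, beside 30.4% of all genes. Without the block none was called by edgeR (3 higher and 0 lower at an unadjusted p under 0.05) or limma-voom, while DESeq2 called Sec61a1 and Sec31a higher. Sec23a encodes a coat protein of the inner COPII layer. It lies on chromosome 12 from 58958383 to 59012017, minus strand, and 8.9% of its exon bases overlap exons of Gm17529 on the other strand. It had 3721, 4660 and 3460 normalized counts in the CTL cultures and 4728, 6678 and 4456 in the TGF-β1 cultures. CTL replicate 2 was above TGF-β1 replicate 3, so the groups overlapped. The log2 fold change was 0.42 (95% interval -0.04 to 0.88, edgeR, adjusted p = 0.205) without the block, 0.41 (0.30 to 0.52, adjusted p = 0.000528) with it and 0.36 (adjusted p = 0.0164) without replicate 2.

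The other coat genes moved by less. Sec31a, of the outer layer, had 8065 to 9106 normalized counts in CTL and 9617 to 11751 in TGF-β1 cultures, with a log2 fold change of 0.31 (edgeR, adjusted p = 0.0878 without the block and 0.00148 with it). Sec24d, a cargo-binding coat protein, was at 0.29 (adjusted p = 0.253 without the block and 0.00345 with it), and both genes also passed without replicate 2 (adjusted p = 0.0223 and 0.0427). Mia3 encodes TANGO1, the receptor that loads bulky procollagen at ER exit sites. Its log2 fold change was 0.13 (adjusted p = 0.248 without the block, 0.0372 with it and 0.115 without replicate 2), and the ratios of the 3 pairs were close together, at 0.12, 0.14 and 0.14. The translocon subunits Sec61a1 and Sec61b were at 0.24 and 0.28 and passed with the block (adjusted p = 0.0121 and 0.00862), but not without replicate 2 (0.0941 and 0.0826). Exons of Sec61a1 also overlap those of other genes over 8.2% of their length. Kdelr2 and Kdelr3 encode receptors that return escaped chaperones to the ER. Kdelr2 was at 0.29 (adjusted p = 0.29 without the block, 0.00536 with it and 0.0364 without replicate 2), while Kdelr3 was at 0.11 and was not called in any fit.

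Procollagen folding genes split by direction, with 2 of 5 called higher and 1 lower with the block, beside 15.1% and 19.1% of all genes. None was called without it by edgeR (1 higher and 0 lower at an unadjusted p under 0.05), DESeq2 or limma-voom. Fkbp10 encodes a prolyl isomerase of procollagen and lies on chromosome 11 from 100415697 to 100424824, plus strand. It had 3051, 4685 and 2900 normalized counts in the CTL cultures and 4672, 7747 and 3950 in the TGF-β1 cultures. CTL replicate 2 was just above TGF-β1 replicate 1 and well above TGF-β1 replicate 3, and the treated culture was higher in each pair. The log2 fold change was 0.62 (edgeR, adjusted p = 0.245) without the block, 0.60 (adjusted p = 0.000195) with it and 0.54 (adjusted p = 0.0162) without replicate 2. Fkbp7, a related isomerase of low abundance, had 373, 579 and 354 normalized counts in the CTL cultures and 619, 875 and 569 in the TGF-β1 cultures, with log2 fold changes of 0.66 (adjusted p = 0.151), 0.67 (adjusted p = 0.000233) and 0.71 (adjusted p = 0.00775) in the same order of fits. TGF-β1 replicate 3 was just below CTL replicate 2.

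Crtap, which acts with P3h1 and Ppib in the complex that 3-hydroxylates procollagen, fell in the fit with the block. It had 2971, 3475 and 2406 normalized counts in the CTL cultures and 2301, 2822 and 2044 in the TGF-β1 cultures. TGF-β1 replicate 2 was above CTL replicate 3, while each treated culture was below the control culture of its number. Its log2 fold change was -0.31 (edgeR, adjusted p = 0.3) without the block, -0.30 (adjusted p = 0.00171) with it and -0.31 (adjusted p = 0.145) without replicate 2. P3h1, of the same complex, was called higher with the block (log2 fold change 0.19, edgeR, adjusted p = 0.0371). It was not called without the block (0.20, adjusted p = 0.508) or without replicate 2 (0.11, adjusted p = 0.266). Serpinh1 encodes HSP47, the collagen-specific chaperone. It had 34817, 42234 and 35522 normalized counts in the CTL cultures and 38867, 49717 and 36568 in the TGF-β1 cultures. The groups overlapped, and its log2 fold change of 0.15 was not called without the block (adjusted p = 0.529) or with it (95% interval 0.01 to 0.28, adjusted p = 0.0835). Ppib, the cyclophilin of that complex, was at 0.07 with a block interval of -0.03 to 0.16, and 25.0% of its exon bases overlap Snx22 on the other strand. Whether the counting used strand is not given in the sources used here, so reads there cannot be assigned to either gene with certainty. Exons of Hsp90b1 (15.7%), Manf (9.3%), Eif2ak3 (8.0%) and Fkbp10 (6.6%) also overlap other genes over part of their length.

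**Figure D4:**
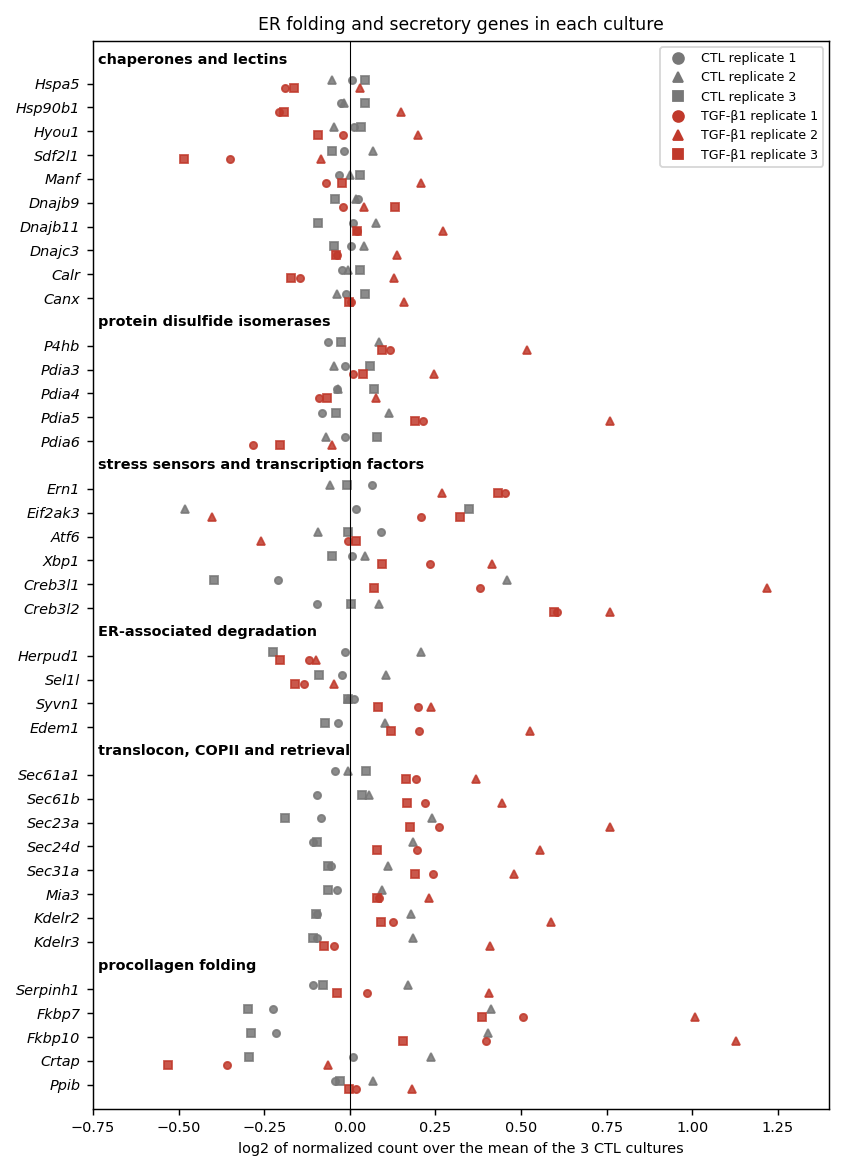
Log2 of each culture's normalized count over the mean of the 3 CTL cultures (horizontal axis) for the 38 genes by role, with grey symbols for CTL and red for TGF-β1 cultures and a shape for each replicate number. Replicate 2 (triangles) lies to the right of the other cultures of its group for Creb3l1, Fkbp7 and Fkbp10 and to the left for Eif2ak3.

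Differences between replicate numbers were as large as the differences between groups for some genes. Replicate 2 was above the mean of the other cultures of its group by 0.76 (CTL) and 0.98 (TGF-β1) on the log2 scale for Creb3l1, by 0.66 and 0.85 for Fkbp10, and by 0.67 and 0.56 for Fkbp7. For Eif2ak3 this difference was -0.67 in both groups. Creb3l2 and Ern1 differed by at most 0.17 in size. The same cultures differed in their epithelial and fibroblast marker sums, and the part of that difference in these transcripts was not tested. The pairs also differed over the whole set. The median log2 ratio of the 38 genes was 0.09, 0.23 and 0.07 in pairs 1, 2 and 3, and the ratio was largest in pair 2 for 28 of the 38 genes (73.7%), beside 35.2% of all genes tested. The set took 1.27% of all counts on genes in TGF-β1 replicate 2 and 1.08% to 1.15% in the other 5 cultures.

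Levels spanned a wide range per kilobase of exon. In CTL cultures Serpinh1 was the highest, at 485 CPM per kb ± 52.9 (SD, n = 3), followed by Calr at 378 ± 7.01 and Pdia3 at 337 ± 12.7. Hspa5 was at 258 ± 8.64, P4hb at 237 ± 12.8, Hsp90b1 at 215 ± 5.74 and Canx at 191 ± 5.51. The lowest were Pdia5 at 7.34 ± 0.535, Ern1 at 8.01 ± 0.342 and Fkbp7 at 9.26. The genes that were called without the block, Creb3l2 at 40.8 and Ern1, were thus far below these 7 abundant transcripts, whose 95% intervals without the block crossed 0. With the block, the interval lay above 0 for P4hb (called higher, edgeR, adjusted p = 0.0246) and for Serpinh1 (not called, adjusted p = 0.0835). It still crossed 0 for the others.

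**Figure D5:**
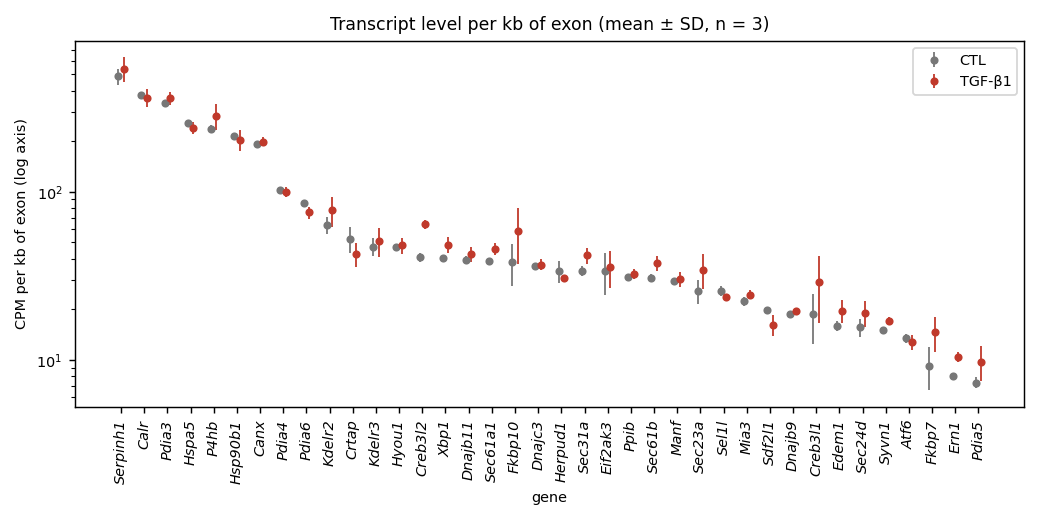
Level of each gene in CPM per kb of exon (vertical axis, log scale), as mean ± SD of 3 CTL cultures (grey) and 3 TGF-β1 cultures (red), ordered by the CTL level. Serpinh1 is highest at 485 and Pdia5 lowest at 7.34 CPM per kb in CTL cultures. The groups' error bars are apart for Creb3l2 and Ern1 and for some genes not called without the block, among them Xbp1, Syvn1 and Sdf2l1.

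The genes with an ERSE in their promoter had a median log2 fold change of -0.06 without the block, from -0.18 (Pdia6) to 0.17 (Syvn1), beside 0.14 for the 24 genes of the set whose promoter was searched and held none. Syvn1 was the 1 of these 7 that was called higher with the block. The 2 genes with ERSE-II, Dnajb11 and Herpud1, were at 0.11 and -0.14. The 3 with the UPRE core had a median of 0.29, and Sec23a and Sec24d were called higher with the block while Kdelr3 was not. These are descriptions of few genes, and the promoters of Creb3l1, Sec61a1, Hyou1, Atf6, Fkbp10, Kdelr2 and Manf were not searched.

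A further 129 genes of the same pathway, listed by function, gave a wider view, and all but Clgn, Creb3l3 and Ern2 were tested, 126 in number. Without the block 6 were called higher (4.76%) and 3 lower (2.38%), and with the block 32 higher (25.4%) and 6 lower (4.76%), beside the shares of all genes given above. Without replicate 2, 8 were called higher and 4 lower. Their median log2 fold change was 0.08 without the block. In the PERK arm, Atf4, the transcription factor that is translated when PERK is active, had 8681 ± 314 normalized counts (SD, n = 3) in CTL and 10319 ± 147 in TGF-β1 cultures, a log2 fold change of 0.25 (edgeR, adjusted p = 0.0286). Ppp1r15a, the phosphatase subunit GADD34 that restores translation, was at 0.31 (adjusted p = 0.031). Ddit3, the stress-induced factor CHOP, had 1375 ± 92.7 and 1382 ± 86.3 normalized counts and a log2 fold change of 0.01 (adjusted p = 0.961). The groups of Atf4 and of Ppp1r15a did not overlap, while those of Ddit3 did.

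Other called genes stood in degradation, transport and hydroxylation. The degradation genes Ube2j1, a ubiquitin-conjugating enzyme, and Nploc4, an adaptor of the p97 segregase, were at 0.25 (edgeR, adjusted p = 0.0158) and 0.20 (adjusted p = 0.0355). Sec16a and Tfg, which organise ER exit sites, were at 0.19 (adjusted p = 0.0464) and 0.20 (adjusted p = 0.031). Among the 3 that fell, Atf6b, the close relative of Atf6, was at -0.30 (adjusted p = 0.03) and Ergic1, a protein of the compartment between ER and Golgi, at -0.36 (adjusted p = 0.014). P3h2, a prolyl 3-hydroxylase of collagen, had 935, 1233 and 881 normalized counts in the CTL cultures and 250, 414 and 253 in the TGF-β1 cultures. It was far lower in every treated culture, with a log2 fold change of -1.74 (SE 0.24, adjusted p = 0.0123). Each of these 9 calls was lost in at least 1 of the 6 fits that left out 1 culture. P3h2 and Ergic1 stayed past 0.05 in 4 of those fits, Ube2j1 in 3, and Ppp1r15a and Atf6b in 2. Atf4 and Sec16a stayed past it in 1, and Nploc4 and Tfg in 0.

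By function, the other COPII, cargo receptor and retrieval genes had 9 of 27 called higher with the block (33.3%) and 1 lower, and the translocation and N-glycan transfer genes 8 of 24 higher (33.3%) and none lower in edgeR's fit (1 at an unadjusted p under 0.05). The PERK and ATF4 arm had 5 of 10 higher and 1 lower, degradation 5 of 20 higher, procollagen modification 4 of 12 higher and 1 lower, and ER folding and oxidation 1 of 24 higher and 2 lower. The stress signalling and OASIS family genes had 0 of 9 higher with the block in edgeR's fit (none at an unadjusted p under 0.05). Atf6b was the 1 called lower. Only the OASIS part of this list is the family of Creb3l1 and Creb3l2. Of that family, Creb3 and Creb3l4 were tested and not called. Beside these counts, 15.1% of all genes were called higher with the block and 19.1% lower.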

How the data were processed

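RNA was measured in 6 cultures, 3 CTL and 3 treated with TGF-β1. Per the labels and the study's methods, poly(A) mRNA from 100 ng of RNA was read as single 50-bp reads, which the authors trimmed with Trim Galore, aligned to GRCm38 with STAR 2.4.1d and counted on genes with HTSeq 0.6.1, as the submitters' processing notes name them. The deposited values are raw read counts per gene. The annotation release and strand setting are not given in the sources used here. Rows that name no gene, 25.4% to 25.9% of counts, were left out. Reads on several genes or places were not counted, which can lower the counts of genes that have near-identical copies. Identifiers were matched to GENCODE M21 (46005 of 46517).

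Tests were run with edgeR 4.0.16 under R 4.3.3 (filterByExpr by group, TMM, robust glmQLFit, two-sided glmQLFTest, Benjamini-Hochberg adjustment over 15862 genes, threshold 0.05), after the models had been tested on simulated data. Normalized counts are TMM-scaled to a common library size. Pair ratios used a pseudocount of 0.5. Figures were drawn with matplotlib 3.10.9 in Python 3.11.15.

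Totals of 28313080 to 34183497 counts per culture set the precision, and floors cover counting error only. Groups and replicate numbers came from the labels. Deviations of same-numbered CTL and TGF-β1 cultures from their group means correlated at 0.445, 0.738 and 0.648 over all genes (members: 0.728, 0.849 and 0.79), and those of other pairs at -0.688 to 0.289. Same-numbered cultures met the rule used here (each above 0.1). CTL replicate 1 with TGF-β1 replicate 3 (0.289) and CTL replicate 3 with TGF-β1 replicate 1 (0.204) met it too. The rule therefore cannot tell how cultures 1 and 3 of the groups pair. Over the 38 genes CTL replicate 1 correlated most with TGF-β1 replicate 3 (0.768). The study states no pairing, so the fit without the block is the main one.

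The 38 genes and all lists were chosen with earlier results of these data known. Counts in each culture were set to be given for called members and for Hspa5, Ern1, Xbp1, Creb3l1 and Serpinh1, and those of other members, such as Fkbp10, Sec23a and Crtap, were added after values had been seen. Of the other secretory genes, those called without the block, at most 3 per list and direction, and Atf4 and Ddit3 were named. The values of P3h1 were added after values had been seen. Alternatives were DESeq2 1.42.0, limma-voom (limma 3.58.1), other normalizations and filters, the block, and leaving out cultures.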

Additional observations from a re-analysis of the deposited data

How the results depend on the processing

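Of the 38 genes, direction and side of the threshold were the same in all 38 with limma-voom, RLE normalization, no filter beyond 1 count and a filter of at least 10 counts in every culture. With DESeq2, 4 of the 38 genes and 14 other secretory genes were called higher. The share of all genes called was not counted for DESeq2 or for library size only. Their counts therefore cannot be set against such a share. With library size only, 2 other secretory genes were called higher, and the log2 fold changes of Canx (-0.0189), Dnajb9 (-0.0215), Dnajc3 (-0.052), Hyou1 (-0.0422), Manf (-0.0314) and Ppib (-0.00691) changed sign, where the median of all genes was -0.0767.

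With the replicate block, which takes same-numbered cultures as pairs, 17 of the 38 genes were called higher and 2 lower, and 32 and 6 of the other secretory genes. It ended no call, and it changed no call of the 38 genes other than those given in the report.

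Leaving out 1 culture, or both of 1 number, gave 0 to 10 of the 38 genes higher and 0 to 2 lower, and 0 to 8 higher and 0 to 4 lower among the other secretory genes. The most calls came without both replicate 2 cultures, where 6.79% of all genes were called higher and 8.09% lower. The share of all genes called was not counted in the other fits that leave out cultures. Whether calls were also lost over all genes there was not tested. No gene of the set was called without both cultures of number 1 (edgeR, 2 higher at an unadjusted p under 0.05) or number 3 (7 higher). Across these fits the sign changed for Hsp90b1 (-0.208 to 0.00617), Hyou1 (-0.0789 to 0.111), Manf (-0.0509 to 0.101), Dnajb9 (-0.00916 to 0.0977), Dnajc3 (-0.0432 to 0.0557), Calr (-0.164 to 0.0142), Canx (-0.0151 to 0.108), Pdia4 (-0.095 to 0.0335), Eif2ak3 (-0.115 to 0.287), Atf6 (-0.127 to 0.00176) and Kdelr3 (-0.0664 to 0.215), none of which was called. The causes of these changes were not tested.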

Other observations

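In 7 of the 38 genes (18.4%) the treated culture was above its control in pair 2 and below it in pairs 1 and 3, beside 910 of all 15862 genes tested (5.74%), and no gene of the set had the opposite pattern, beside 1192 of all genes tested (7.51%). These 7 were Hspa5, Hsp90b1, Hyou1, Manf, Calr, Pdia4 and Pdia6, which comprise 5 of the 10 chaperones and lectins and 2 of the 5 protein disulfide isomerases. Their log2 ratios in pair 2 ran from 0.02 (Pdia6) to 0.25 (Hyou1), and the ratios of Hspa5 were -0.20, 0.08 and -0.21 in pairs 1, 2 and 3. The difference between the pairs was not tested. The pattern was picked after the ratios had been seen.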
